A study of Mus musculus with 11 samples.

Results

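DNA methylation was compared between cells that had been without estradiol for a long time and cells that had been without it for a short time, all of them returned to the hormone before harvest. The cells were ER-Hoxa9-Lys-GFP cells of the C57BL/6 mouse strain, grown in culture in RPMI with fetal bovine serum and SCF conditioned medium. The long arm held 4 libraries, 2 withdrawn for 56 h and returned for 64 h and 2 withdrawn for 72 h and returned for 48 h. The short arm held 4 libraries, 2 withdrawn for 24 h and returned for 96 h and 2 withdrawn for 40 h and returned for 80 h. These 8 libraries are all of the returned cells among the 11 libraries of the series, and they were chosen by the hours in their titles. The other 3 were 2 libraries of cells withdrawn for 120 h and not returned and 1 library of untreated cells in continuous estradiol, and they took no part in the tests of long against short withdrawal. In every returned library the hours without and with estradiol add to the same total, so effects of a longer withdrawal and of a shorter return cannot be told apart. Whether replicates were separate cultures is not said in the labels, and the p-values therefore cover only the spread among these libraries, which may be technical.

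Hoxa9 is a homeobox transcription factor that holds myeloid progenitors in an immature, dividing state. When it is fused to the estrogen receptor it acts only while estradiol is present, so washing the hormone out lets the progenitors mature towards neutrophils and macrophages, and the Lys-GFP reporter follows lysozyme, a gene of maturing myeloid cells. Methylation of cytosine in CpG dinucleotides is written by the Dnmt enzymes, copied to the new strand at replication with the help of Uhrf1, and oxidised towards removal by the Tet enzymes. Methylation is usually high over most of the genome and low at CpG-rich promoters, and it changes at enhancers as blood cells mature.

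Methylation was read by reduced representation bisulfite sequencing (RRBS), which sequences CpG-rich fragments after converting unmethylated cytosines. A CpG-read observation is 1 read at 1 listed CpG. Depth was 9749600 and 8953231 observations in the 56 h libraries and 34706471 and 23871326 in the 72 h libraries, against 16281112 and 46316547 in the 24 h libraries and 8234933 and 10317379 in the 40 h libraries. Reads were summed in tiles of 500 bp on mouse build mm9, chromosomes 1 to 19, that held at least 3 listed CpGs and at least 30 observations in each of the 8 libraries. This gave 47597 tiles, of which 47346 were tested and 251 had reads of 1 kind only. The median library depth over these tiles ran from 71 to 257 observations per tile in the long arm and from 65 to 358 in the short arm. The deepest libraries, 24 h replicate 2 and both 72 h libraries, therefore carry the most weight in the test. Arm means and differences printed below weigh the libraries equally, so a p-value and its difference are not the same measure.

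Gene names were obtained by placing RefSeq promoter sequences on the listed mm9 CpGs by the spacing of their CpGs, without converting coordinates. A place was found and used for 7540 promoters of 6728 genes. Distances below run from a tile to the nearest placed promoter on either side, a gene with no placed promoter may lie closer, and whether a tile lies in an exon or an intron was not determined. The 2 promoters that met a called tile, or lay within 1 kb of one, are shown because the CpGs that differed lie just downstream of each start. Sequences are from RefSeq, build GRCm38.p6, read 5′ to 3′ on the gene's strand, from 250 bases before the start to 50 after it, and capitals mark the CpGs listed in any library.
Syncrip: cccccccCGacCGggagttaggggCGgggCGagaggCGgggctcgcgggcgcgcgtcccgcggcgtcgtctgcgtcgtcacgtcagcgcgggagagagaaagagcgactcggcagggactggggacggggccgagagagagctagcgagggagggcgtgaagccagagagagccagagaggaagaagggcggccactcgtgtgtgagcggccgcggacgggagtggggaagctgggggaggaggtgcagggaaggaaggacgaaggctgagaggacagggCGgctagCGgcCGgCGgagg
Ctdspl: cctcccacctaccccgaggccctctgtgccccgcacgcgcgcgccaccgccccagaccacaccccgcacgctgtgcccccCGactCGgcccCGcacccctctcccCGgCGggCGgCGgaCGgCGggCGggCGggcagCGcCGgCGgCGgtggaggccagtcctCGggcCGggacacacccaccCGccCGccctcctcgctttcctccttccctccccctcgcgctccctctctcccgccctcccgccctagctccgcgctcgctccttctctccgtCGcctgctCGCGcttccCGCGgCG
The Syncrip promoter, of a gene for an RNA-binding protein, was placed at chr9:88377186-88377485 on the minus strand, and 9 of its 36 CpGs were listed. The Ctdspl promoter, of a gene for a small phosphatase of the RNA polymerase II C-terminal domain family, was placed at chr9:118835404-118835703 on the plus strand, and 25 of its 43 CpGs were listed. Both promoters were nearly free of methylation in both arms. At the listed CpGs of the Syncrip promoter 0% of 411 reads were methylated in the long arm and 1.18% of 255 in the short arm, and at those of the Ctdspl promoter 3.84% of 443 reads in the long arm and 4.73% of 550 in the short arm.

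Most of the measured genome was alike after long and short withdrawal. The arm means differed by under 5 percentage points at 95.2% of the tiles tested, the median difference was -0.02 points, and 242 tiles differed by 10 points or more. At an adjusted p under 0.05 (Benjamini-Hochberg over all tiles, quasi-binomial model, dispersion moderated as in limma), 5 tiles were lower in the long arm, 0.0106% of those tested, and 4 were higher, 0.00845%. All 9 are described here, with 1 further tile that missed the threshold and was taken to complete 5 in the higher direction. Of the 9, 4 lay on chromosome 2, which held 7.15% of the tiles tested. The called differences ran from -25.7 to -10.6 points among the lower tiles and from 5.43 to 20.3 points among the higher ones.

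Calls depended on the model and on single libraries. On simulated data the test called more tiles falsely than the threshold allows, so the adjusted p-values printed here may be too low. The simulation gave every tile the same extra spread between libraries, so which of the calls this bears on most was not tested. With limma on log2 odds, 1 mean per hour group, or replicate number as a block, 0 tiles were called in either direction. Tiles at an unadjusted p under 0.05 numbered 2165, 2908 and 2885 in that order, or 4.57, 6.14 and 6.09% of those tested. In the test of the arms they numbered 3164 or 6.68%. Without 24 h replicate 2 the counts were 0 lower and 0 higher, without 24 h replicate 1 they were 1 and 0, without 72 h replicate 1 they were 2 and 1, and without 72 h replicate 2 they were 3 and 2.

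**Figure D1:**
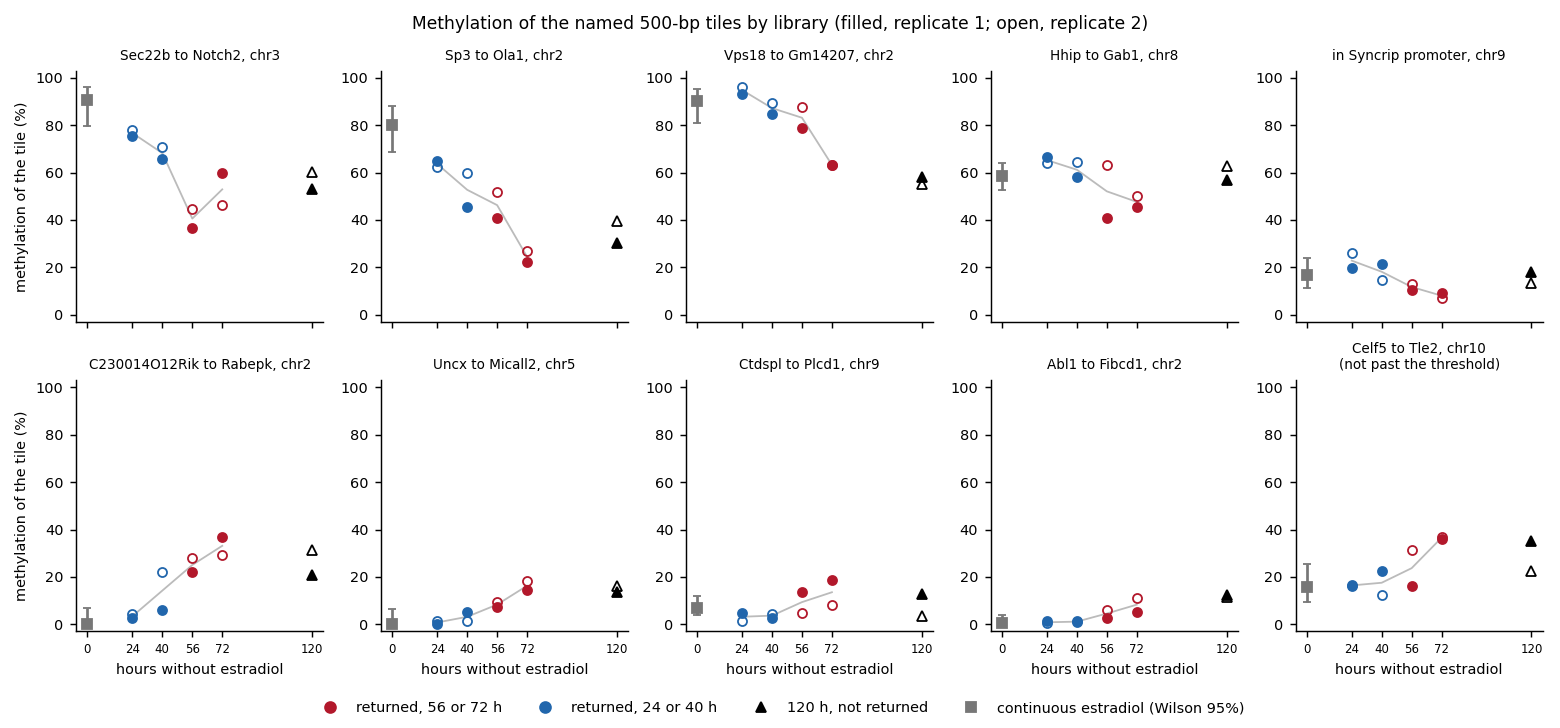
Methylation (%) of the 10 named tiles against hours without estradiol, 1 panel per tile titled by its nearest placed promoters. Red points are the long arm, blue points the short arm (filled replicate 1, open replicate 2, grey line through the means of the 4 returned hour groups), triangles the 120 h libraries and the square the continuous estradiol library with its Wilson 95% interval. At the Sec22b to Notch2 tile the long libraries sit between 36.7 and 59.6% and the short ones between 65.7 and 78.1%.

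The largest called fall lay between Sec22b, a SNARE of transport between endoplasmic reticulum and Golgi, and Notch2, a receptor of the Notch pathway in blood cells. The tile chr3:97723001-97723500 began 17.8 kb past the Sec22b promoter, and the Notch2 promoter lay 93.7 kb further on. Its methylation level was 36.7 and 44.4% at 56 h and 59.6 and 46.2% at 72 h, against 75.3 and 78.1% at 24 h and 65.7 and 70.7% at 40 h. Every long library was below every short one, as at 1.34% of all tiles tested, and the lowest libraries were those of 56 h, not of 72 h. The mean was 46.8% ± 9.5 in the long arm and 72.4% ± 5.4 in the short arm (SD, n = 4 each), a difference of -25.7 points (adjusted p = 0.031), on 35 to 269 observations per library. All 4 CpGs were lower in the long arm. The CpG with the largest difference, at 97723271, was at 7.95% of 151 reads in the long arm and 43.2% of 155 in the short arm. By library that CpG was at 0 and 0% at 56 h and 13.0 and 6.67% at 72 h. The short libraries were at 45.5 and 48.9% at 24 h (33 and 94 reads) and 25 and 20% at 40 h (8 and 20 reads). Without estradiol for 120 h the tile was at 53.2 and 60.2%, and in continuous estradiol at 90.6% (Wilson 95% interval 79.7 to 95.9, 53 observations).

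The second called fall lay between Sp3, a zinc-finger transcription factor of the Sp family, and Ola1, an ATPase of the Obg family. The tile chr2:72875501-72876000 was 56.7 kb from the Sp3 promoter and 176.5 kb from that of Ola1. Methylation was 40.9 and 51.6% at 56 h and 22.2 and 26.8% at 72 h, against 64.9 and 62.4% at 24 h and 45.5 and 60% at 40 h. The arms overlapped, since 56 h replicate 2 lay above 40 h replicate 1, and the 72 h libraries were the lowest of the 8. The long arm averaged 35.4% ± 13.5 and the short arm 58.2% ± 8.7 (SD, n = 4 each), with a difference of -22.8 points (adjusted p = 0.0141). All 5 CpGs were lower in the long arm, by differences of -41.8 to -18.3 points, and the CpG at 72875561 was at 2.13% in the long arm and 25% in the short arm. Levels were 30.2 and 39.7% at 120 h and 80.0% in continuous estradiol (68.7 to 87.9, 65 observations).

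The third called fall lay 8.0 kb past the promoter of Vps18, a subunit of the complexes that tether endosomes and lysosomes, and 28.9 kb from Gm14207. The tile chr2:119122501-119123000 was at 78.8 and 87.5% at 56 h and 63.3 and 63.1% at 72 h, against 93.3 and 96.3% at 24 h and 84.9 and 89.5% at 40 h. The 72 h libraries stood well below the other 6, and 56 h replicate 2 lay inside the range of the short arm. Means were 73.2% ± 12.03 in the long arm and 91.0% ± 4.9 in the short arm (SD, n = 4 each), a difference of -17.8 points (adjusted p = 0.00536). All 8 CpGs were lower in the long arm, 5 of them by 10 points or more. At 119122667 18.5% of 108 reads were methylated in the long arm and 91.6% of 95 in the short arm. The level was 7.32 and 19.2% at 72 h (41 and 52 reads), against 92.9 and 96.8% at 24 h (14 and 63 reads). It was 33.3 and 66.7% at 56 h (9 and 6 reads) and 70 and 75% at 40 h (10 and 8 reads). The pooled values there thus rest mostly on the 72 h and 24 h libraries. At 119122714 the levels were 37.5% in the long arm and 92.3% in the short arm, and the CpGs at 119122613, 119122687 and 119122710 differed by -36.9, -19.9 and -20.9 points. The CpGs at 119122505, 119122512 and 119122594 differed by -4.78 to -1.15 points. The tile next to it, chr2:119123001-119123500, was at 97.4% in both arms. The tile itself was at 58.2 and 55.4% at 120 h and at 90.1% in continuous estradiol (81.0 to 95.1, 71 observations).

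**Figure D2:**
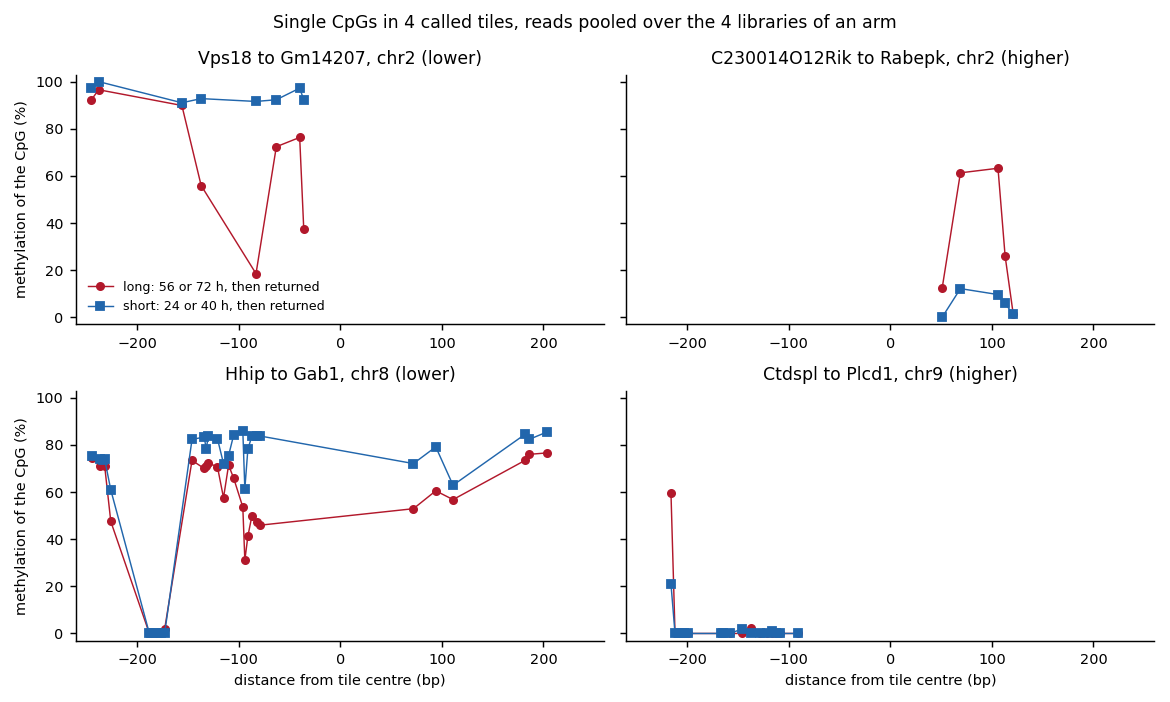
Methylation (%) of single CpGs with at least 20 reads in each arm against distance from the tile centre (bp), in 4 called tiles. Red circles are the reads of the 4 long libraries pooled and blue squares those of the 4 short libraries. At the Vps18 to Gm14207 tile 1 CpG is at 18.5% in the long arm and 91.6% in the short arm, with most of its reads from the 72 h and 24 h libraries. At the Ctdspl to Plcd1 tile 1 of 17 CpGs carries the difference.

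A CpG-rich tile on chromosome 8, far from any placed promoter, was lower in the long arm. The tile chr8:83263001-83263500, with 30 listed CpGs, was 680.8 kb from the promoter of Hhip, an inhibitor of Hedgehog signalling, and 140.8 kb from that of Gab1, a docking protein of receptor tyrosine kinases. It was at 41.0 and 63.2% at 56 h and 45.3 and 50% at 72 h, against 66.6 and 63.9% at 24 h and 58.0 and 64.4% at 40 h. The arms overlapped, because 56 h replicate 2 was as high as the short libraries. The long arm averaged 49.9% ± 9.6 and the short arm 63.2% ± 3.7 (SD, n = 4 each), a difference of -13.4 points (adjusted p = 0.016). Of the 30 CpGs 25 were lower in the long arm, 15 of them by 10 points or more. The CpG with the largest difference, at 83263171, was at 45.9% in the long arm and 83.8% in the short arm on 37 reads each. The libraries did not read the same CpGs equally often. Standardised for which CpGs were read, an alternative chosen after seeing the data, the difference was -7.57 points and the call was lost (adjusted p = 0.108). Levels were 57.0 and 62.7% at 120 h and 58.7% in continuous estradiol (52.8 to 64.2, 283 observations).

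The only called tile that held a placed promoter was the Syncrip tile. At chr9:88377001-88377500 methylation was 10.5 and 13.0% at 56 h and 9.0 and 7.1% at 72 h, against 19.6 and 26.1% at 24 h and 21.6 and 14.7% at 40 h. Every long library was below every short one. Means were 9.9% ± 2.5 in the long arm and 20.5% ± 4.7 in the short arm (SD, n = 4 each), a difference of -10.6 points (adjusted p = 0.0201). The difference sat in 5 neighbouring CpGs, 169 to 187 bp downstream of the Syncrip start and so outside the printed sequence. These were at 25.7 to 39.0% in the long arm and 42.2 to 63.0% in the short arm, while the other CpGs with a value were at 0 to 3.70% in both arms. Standardised for the CpGs read, the difference was -7.34 points and the call was lost (adjusted p = 0.512). The tile was at 17.9 and 13.4% at 120 h and at 16.8% in continuous estradiol (11.4 to 24.1, 131 observations).

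The largest called rise was at chr2:34476001-34476500, 178.8 kb from the promoter of Rabepk, a kelch-repeat protein that binds Rab9, and 512.5 kb from that of C230014O12Rik. Methylation was 22.0 and 28.1% at 56 h and 36.9 and 29.4% at 72 h, against 2.5 and 4.3% at 24 h and 6.2 and 22.2% at 40 h. The arms overlapped, since 40 h replicate 2 lay just above 56 h replicate 1, and the 24 h libraries were the lowest. The long arm averaged 29.1% ± 6.1 and the short arm 8.8% ± 9.1 (SD, n = 4 each), a difference of 20.3 points (adjusted p = 0.016) on 32 to 233 observations per library. Within a span of 70 bp, the CpGs at 34476319 and 34476356 were at 61.3 and 63.2% in the long arm. In the short arm they were at 12.2 and 9.64%, with reads pooled over libraries. By library the CpG at 34476356 was at 44.4 and 50% at 56 h (9 and 4 reads). It was at 83.9 and 45.8% at 72 h (31 and 24 reads). The short libraries were at 0 and 6.82% at 24 h (19 and 44 reads) and 25 and 25% at 40 h (12 and 8 reads). The CpG at 34476371 was at 1.35% in the long arm and 1.22% in the short arm. At 120 h the tile was at 20.7 and 31.2%, and in continuous estradiol 0 of 53 observations were methylated (Wilson 95% interval 0.0 to 6.8%).

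The tile chr5:140199501-140200000 rose between methylated neighbours. It lay 12.2 kb from the promoter of Micall2, an effector of Rab13 in membrane traffic, and 179.6 kb from that of Uncx, a homeobox gene. Its 3 CpGs lie within 19 bp. Methylation was 7.1 and 9.5% at 56 h and 14.4 and 18.2% at 72 h, against 0.0 and 1.6% at 24 h and 5.1 and 1.2% at 40 h. Every long library was above every short one, as at 1.14% of all tiles tested. The long arm averaged 12.3% ± 4.9 and the short arm 2.0% ± 2.2 (SD, n = 4 each), a difference of 10.3 points (adjusted p = 0.016). The other tested tiles within 10 kb were at 94.7 and 98.4% in the long arm and 94.1 and 96.8% in the short arm. The tile was at 13.6 and 16.2% at 120 h, and 0 of 54 observations were methylated in continuous estradiol (0.0 to 6.6%).

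Downstream of the Ctdspl promoter, with Plcd1, a phospholipase C, on its other side, the tile chr9:118836001-118836500 was higher in the long arm. It began 298 bp past the end of the printed sequence. Methylation was 13.8 and 4.9% at 56 h and 18.9 and 8.2% at 72 h, against 4.8 and 1.6% at 24 h and 2.8 and 4.5% at 40 h. The arms did not overlap, though 56 h replicate 2 and 24 h replicate 1 were nearly equal. Means were 11.4% ± 6.2 in the long arm and 3.4% ± 1.5 in the short arm (SD, n = 4 each), a difference of 8.02 points (adjusted p = 0.0236). A single CpG, 380 bp downstream of the Ctdspl start, carried it. That CpG was at 59.5% of 220 reads in the long arm and 20.95% of 105 in the short arm, and the other 16 were at 0 to 2.50% in both arms. By library that CpG was at 61.9 and 31.25% at 56 h and 65.0 and 50% at 72 h. The short libraries were at 30.8 and 11.5% at 24 h and 33.3 and 26.7% at 40 h. The arms overlapped there, since 56 h replicate 2 lay below 40 h replicate 1. The CpG was also read more often in the long arm, with 143 of the 220 reads from 72 h replicate 1. Standardised for the CpGs read, the tile differed by 4.33 points (adjusted p = 0.386). Levels were 12.8 and 3.5% at 120 h and 7.0% in continuous estradiol (3.93 to 12.035, 158 observations).

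Between Abl1, a tyrosine kinase, and Fibcd1, a receptor that binds chitin, the tile chr2:31664001-31664500 was higher in the long arm. It lay 48.5 kb from the Abl1 promoter and 37.0 kb from that of Fibcd1. Its level was 2.9 and 6.2% at 56 h and 5.3 and 11.3% at 72 h, against 1.2 and 0.5% at 24 h and 1.2 and 1.0% at 40 h. The short libraries were close together near 1%, and every long library was above them. The long arm averaged 6.4% ± 3.5 and the short arm 1.0% ± 0.4 (SD, n = 4 each), a difference of 5.43 points (adjusted p = 0.0233). At 31664212, its CpG with the largest difference, the level was 21.9% of 73 reads in the long arm and 1.15% of 87 in the short arm. This tile was also the only named one with another tested tile within 10 kb that differed by 10 points or more in the same direction. That tile, chr2:31656501-31657000, was at 50.5% in the long arm and 35.9% in the short arm, which did not pass the test (adjusted p = 0.266). The Sec22b to Notch2 tile and chr2:34476001-34476500 had 0 other tested tiles within 10 kb, so neither could show such a neighbour. The Sp3 to Ola1 and Hhip to Gab1 tiles had 1 each. At 120 h the called tile was at 12.2 and 11.6%, and in continuous estradiol at 0.8% (0.1 to 4.1, 133 observations).

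The tile chr10:81027001-81027500 was higher by 13.1 points in the long arm but did not pass the threshold (adjusted p = 0.0782). It lay 10.3 kb from the promoter of Tle2, a Groucho co-repressor, and 81.3 kb from that of Celf5, an RNA-binding protein. Values were 16.1 and 31.2% at 56 h and 36.1 and 37.0% at 72 h, against 16.2 and 16.7% at 24 h and 22.6 and 12.5% at 40 h. The arms overlapped, since 56 h replicate 1 was at the level of the 24 h libraries. It was at 35.1 and 22.4% at 120 h and at 15.9% in continuous estradiol (9.5 to 25.3, 82 observations).

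Over all tiles tested, standardising for the CpGs read gave 4 tiles called lower and 5 called higher, and 6 of the 9 called tiles were among them. Those 6 moved by under 2 points, and the Sec22b to Notch2 tile moved the most of them, to -23.8 points (adjusted p = 0.0294). The 3 that lost the call were the Hhip to Gab1, Syncrip and Ctdspl tiles. The 6 that kept it here did not keep it under every alternative. The alternatives that kept it ran from 7 of 17 at the Sec22b to Notch2 and Abl1 to Fibcd1 tiles to 12 of 17 at the Vps18 to Gm14207 tile. Leaving out 1 library at a time, the call was kept in 3 of 8 cases at the first of these tiles. It was kept in 7 of 8 at the Vps18 to Gm14207 tile, the most among the 6.

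**Figure D3:**
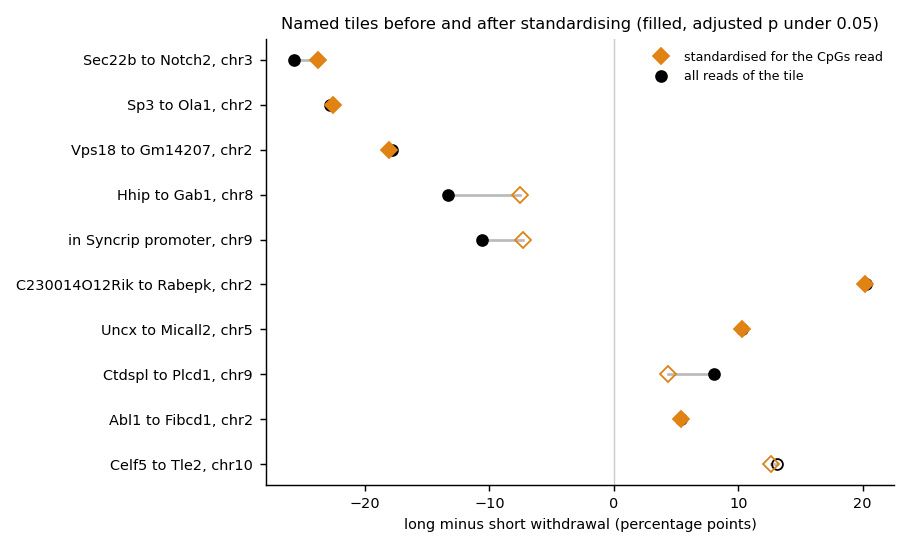
Difference in methylation, long minus short withdrawal (percentage points), at the 10 named tiles, from all reads of the tile (black circles) and after standardising for the CpGs read (orange diamonds), with filled symbols for an adjusted p under 0.05. The Hhip to Gab1, Syncrip and Ctdspl to Plcd1 tiles move towards 0 and lose the call.

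Within each arm the hours were also compared, and 0 tiles (0%) were called for 72 h against 56 h and 0 (0%) for 40 h against 24 h in the quasi-binomial model. At an unadjusted p under 0.05 there were 2807 tiles for 72 h against 56 h, 5.93% of those tested. For 40 h against 24 h there were 2675, or 5.65%. Limma called 0 in each, with 3389 (7.16%) and 3370 (7.12%) at an unadjusted p under 0.05. The tile with the smallest p for 72 h against 56 h was chr13:21879501-21880000, at 1.46 and 2.13% at 72 h, against 29.1 and 11.1% at 56 h (adjusted p = 0.809), 23.4 kb from the histone gene H4c17. In the other direction it was chr6:119493501-119494000, 0.3 kb from the promoter of the secreted signal Wnt5b, at 100 and 99.2% at 72 h, against 89.3 and 86.7% at 56 h (adjusted p = 0.809). For 40 h against 24 h the leading tile was chr1:74863001-74863500, at 31.9 and 51.3% at 40 h, against 17.6 and 13.7% at 24 h (adjusted p = 0.676). The leading tile that was lower, chr8:75877001-75877500, was at 19.1 and 18.0% at 40 h, against 47.2 and 42.0% at 24 h (adjusted p = 0.676). None of these 4 passed the test. Among the 9 called tiles the largest step inside an arm was at the Sp3 to Ola1 tile, with a difference of -21.8 points, 72 h minus 56 h (adjusted p = 0.809).

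The 3 libraries that took no part were set beside the called tiles, giving 120 h without return first and continuous estradiol after it. Of the 5 called lower tiles 4 were lower at 120 h than in continuous estradiol, with a median over the 5 of -33.4 points. The Syncrip tile was lower by only a little, with a difference of -1.14 points and both 120 h libraries inside the Wilson interval of continuous estradiol, and the Hhip to Gab1 tile was higher by 1.21 points. All 4 called higher tiles were higher at 120 h by the mean of the 2 libraries, with a median of 13.1 points. The least was the Ctdspl tile by 1.19 points, where the 120 h libraries lay on either side of continuous estradiol (12.8 and 3.5% against 7.0%). Among all tiles lower in the long arm 50.5% were lower at 120 h, and among all tiles higher in the long arm 49.9% were higher at 120 h. The shares were also near these for tiles picked by the size of their difference. Arms that did not overlap and differed by 10 points or more were found at 32 lower tiles (0.0676% of those tested) and at 32 higher tiles (0.0676%), and of these 16 (50%) were lower and 18 (56.3%) were higher at 120 h than in continuous estradiol. The continuous estradiol level rests on 1 library, and these differences between 120 h and continuous estradiol were not tested.

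**Figure D4:**
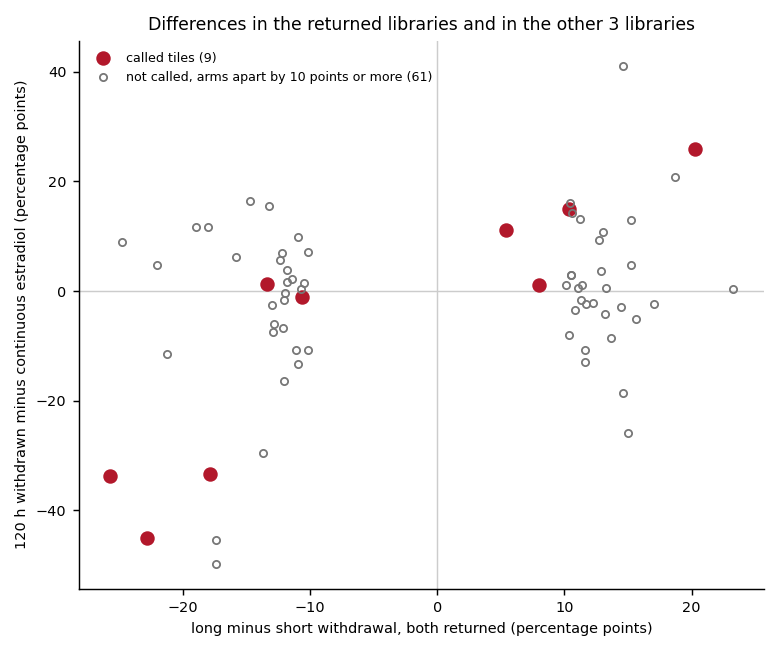
Difference between the 120 h libraries and the continuous estradiol library (percentage points) against the difference between long and short withdrawal (percentage points), 1 point per tile. Red points are the 9 called tiles and open circles 61 further tiles whose arms did not overlap and differed by 10 points or more. Of the called tiles 4 of 5 on the left lie below 0 and 4 of 4 on the right lie above 0. The Syncrip (-1.14 points) and Ctdspl (1.19 points) tiles among them lie close to the line.

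The mean methylation of whole classes of tiles differed little. Among the 25304 tiles above 80% in continuous estradiol the level was 93.7 and 93.8% at 56 h and 93.5 and 93.7% at 72 h, and 93.8 to 93.9% in the short libraries. All 4 long libraries were below all 4 short ones, with means of 93.679% ± 0.143 in the long arm and 93.897% ± 0.034 in the short arm (SD, n = 4 each). The difference was -0.218 points (two-sided exact permutation p = 0.0286, the smallest that 70 splits allow, adjusted p = 0.171 over 6 classes), so it failed the correction. The 120 h libraries were at 93.573 and 93.77%, and the continuous estradiol library, which defined the class, at 94.365%. In the 4791 tiles between 20 and 80% the means were 57.0% ± 0.57 in the long arm and 57.0% ± 0.25 in the short arm (exact permutation p = 0.943), and in the 17240 tiles under 20% they were 1.60% ± 0.05 and 1.54% ± 0.04 (exact permutation p = 0.143). By CpG content, tiles with under 10 listed CpGs differed by -0.149 points between the arms (exact permutation p = 0.0571), those with 10 to 19 by -0.0735 (exact permutation p = 0.229), and those with 20 or more by -0.0519 (exact permutation p = 0.629). None passed after adjustment over the 6 classes. Without 72 h replicate 1 these 3 differences were -0.0805, -0.0224 and 0.00521 points, and with reads pooled over tiles they were -0.608, -1.11 and -0.912 points.

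**Figure D5:**
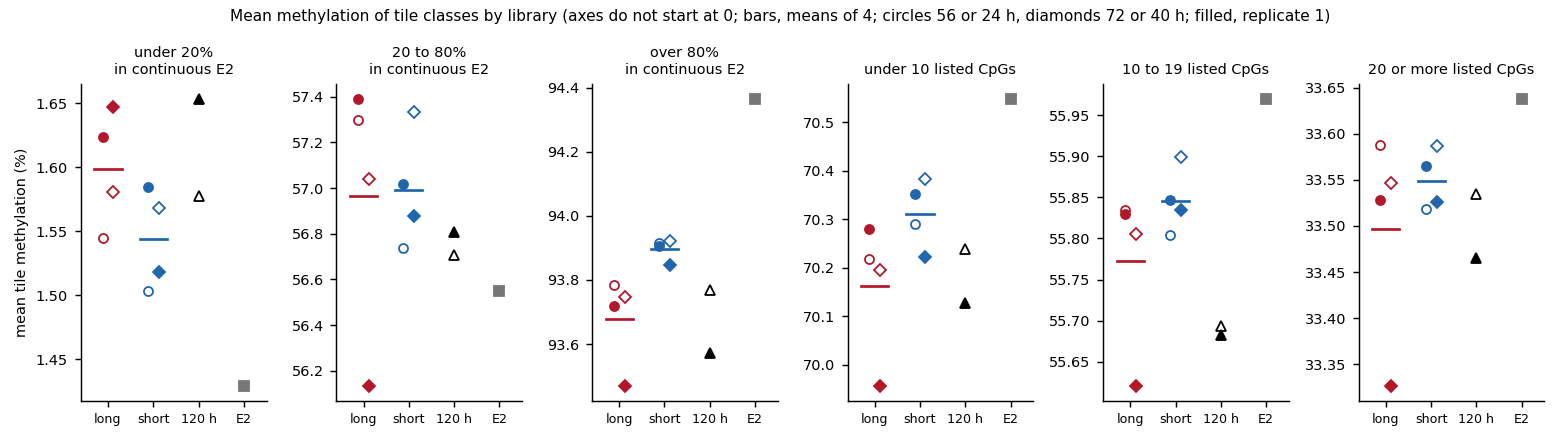
Mean methylation (%) of the tiles in 6 classes, 1 symbol per library, with long withdrawal left of short withdrawal and bars at the means of 4 libraries. The axes do not start at 0 and each panel has its own range. Among tiles above 80% in continuous estradiol the long libraries lie below the short ones, with a mean difference of -0.218 points.

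Promoter tiles were mostly near 0 in both arms. Tiles with a placed promoter numbered 5755 among those tested, for 6372 genes, and their median level was 0.498% in the long arm and 0.478% in the short arm. Among them 97.97% differed by under 5 points, 1 was called lower, the Syncrip tile, and 0 were called higher. Of 12 genes for enzymes that write, read or remove methylation, 6 had a promoter tile that was tested, and 0 were called, with differences from -1.69 to 0.32 points. Of 20 progenitor genes 5 had one, and of 25 genes of myeloid maturation 5 had one, with 0 called in each and differences from -0.28 to 0.90 and from -0.48 to 0.38 points. Over all tiles tested 0.019% were called.

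Each gene here is given by 1 tested tile, that with the largest overlap with a placed promoter. Other starts of a gene, placed or not, are not given. Among the enzymes, the tile at a placed promoter of the de novo methyltransferase gene Dnmt3a was partly methylated. It was at 36.8 and 28.4% at 56 h and 34.1 and 43.7% at 72 h. In the short arm it was at 45.8 and 39.2% at 24 h and 29.1 and 34.8% at 40 h. The libraries of the arms were interleaved, with means of 35.8% ± 6.4 in the long arm and 37.2% ± 7.1 in the short arm (SD, n = 4 each; adjusted p = 0.945 in the model over all tiles, moderated as in limma). The tile of Tet3, which oxidises methylated cytosine, averaged 39.7% ± 4.5 in the long arm and 41.4% ± 7.3 in the short arm (adjusted p = 0.723 in that model). Those of Dnmt3b, Uhrf1 and Tet2 were under 0.5% in both arms. Tdg, a glycosylase that removes oxidised methylcytosine, was at 6.80% in the long arm and 7.42% in the short arm. At progenitor genes, the Hoxa5 tile was almost fully methylated, at 98.2% in the long arm and 98.4% in the short arm, and the tile of Kit, the receptor for stem cell factor, was at 2.32% in the long arm and 1.42% in the short arm. Those of Myb, Gata2 and Bcl2 were between 0.59 and 1.12% in each arm. Myeloid transcription factor genes were near 0 in both arms, Cebpb at 0.418% in the long arm and 0.0385% in the short arm and Runx1 at 0.219% in the long arm and 0.696% in the short arm, with Klf4, Runx3 and Id2 between 0.24 and 0.55%. None of these differences passed the adjusted threshold; at Tet3 the unadjusted p was 0.032 in the model over all tiles, moderated as in limma.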

How the data were processed

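RRBS was analysed in 8 returned libraries of an 11-library series. Per the deposited files, 1 line per CpG gives methylated over total reads, the counts used here, and a score, which equalled 1000 times the methylated share in 100.0% of lines. Per the submitters' processing notes the build was mm9. The sources used here do not give the aligner, the caller or the handling of PCR duplicates. A read counts at each CpG it spans and PCR reads are not independent molecules, so Wilson intervals cover counting error only.

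Tiles were fitted with a quasi-binomial logistic model, 1 mean per arm, and tested by deviance with a two-sided F test. Dispersions were moderated over all tiles as in limma's squeezeVar (16.1 prior degrees of freedom) with a lower limit of 1, rewritten in Python 3.11.15 with numpy 2.4.6 and scipy 1.17.1. It was checked against limma 3.58.1 in R 4.3.3 (largest relative difference 1.3e-15) and tested on simulated data. There every tile had the same extra spread between libraries, large falls were recovered, and false calls were more frequent than the threshold allows. Changes were simulated only as falls in the long arm at partly or highly methylated tiles. Recovery of rises, and of changes at weakly methylated tiles, was not simulated. Each hour group had its own mean in the comparisons within an arm. Named tiles were up to 10 lower and 10 higher by size among those called, filled to 5 in a direction by the smallest p among tiles of 10 points or more, and the smallest p each way within an arm. Class means used exact permutation over libraries.

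RefSeq promoters (31396 sequences on 18 of the 19 autosomes) were placed where at least 6 listed CpGs matched, no listed CpG contradicted the spacing, the lead over the next place was at least 4, and the order matched the gene table, and 22 out of order were dropped. Single CpGs are given with at least 20 pooled reads per arm, so libraries with more reads at a CpG weigh more in its pooled level. Members, gene lists and tests were chosen with earlier results of these data known, and the promoter placing and the standardising for CpGs read were added after seeing the data.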

Additional observations from a re-analysis of the deposited data

Results flagged for a closer look

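Among tiles with 10 to 19 listed CpGs, 72 h replicate 1 stood apart from the other long libraries, with a mean methylation of 55.62% against 55.806 to 55.835% in the other 3. Of 32 groups of 4 libraries examined this was the only one with such a gap, and chance gives one in about 1 in 20 groups. The same library had the lowest methylation over all CpG-read observations, 58.75%, and was the lowest long library in the class above 80%. Without it the difference of that class was -0.147 points in place of -0.218.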

How the results depend on the processing

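The sign of the difference was the same at all 10 named tiles under every alternative that kept the tile. Several alternatives left the difference itself unchanged, and the rest reused reads of the same libraries, so the shared sign is no independent check. The counts, 5 lower and 4 higher, were not stable. Counts of lower and higher tiles were 0 and 0 with limma on log2 odds, with 1 mean per hour group and at 60 observations per tile (21747 tested, 3 of the 9 called tiles among them). They were 3 and 2 for a slope with hours, 20 and 10 at 10 observations, 6 and 7 for CpGs read in all 8 libraries, 1 and 1 for CpGs with 5 reads in all 8, 12 and 8 in 1000-bp tiles, and 4 and 2 for tiles at 5 to 95% methylation. With replicate 1 libraries only they were 77 and 25, of which 3 and 2 were among the 9 called tiles. With replicate 2 libraries only they were 39 and 73, of which 5 and 3 were among the 9. Without both 24 h libraries they were 2 and 0, without both 40 h libraries 8 and 8, without both 56 h libraries 3 and 2, and without both 72 h libraries 0 and 0. Leaving out 1 library gave 0 to 7 lower and 0 to 6 higher. With replicate number as a block 0 lower and 0 higher were called (2885 tiles, 6.09%, at an unadjusted p under 0.05). Replicate differences correlated between hour groups at -0.0159 to 0.0419 over 4777 tiles. Read noise at these depths lowers such correlations, so they cannot tell whether the replicate numbers pair the samples. The 2 comparisons within an arm gave 0 calls under the alternatives run for them, which were no lower limit on the dispersion, the block, limma and leaving out each library. With reads pooled over tiles, the class difference reversed for tiles under 20% (-0.0108 points) and for 20 to 80% (0.668). Leaving out 1 library, the difference ran from -0.168 to 0.252 points for 20 to 80% and from -0.0822 to 0.00521 for 20 or more CpGs, reversing without 72 h replicate 1 in both and, for 20 to 80%, without 40 h replicate 2 (0.0874). The cause was not tested. Median depths of 65 to 358 observations per tile limit what a single tile can show.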
